A study of Mus musculus with 5 samples.

Results

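The clustered protocadherin genes lie side by side on mouse chromosome 18 in 3 groups, alpha, beta and gamma. The CpGs described here are those of the 1050000 bp from 37000000 on (mm9 build), chosen by position alone, with both strands of a CpG merged. In at least 1 library 765 CpGs of this window were listed, of 1170580 on all autosomes. All 5 libraries listed 654 of them, of 1030056 on all autosomes, and the results are for these 654 unless stated otherwise. They comprise 139 CpGs of the alpha cluster (first and last at 37080209 and 37354547), 87 of the beta cluster (37424877 and 37646648), 337 of the gamma cluster (37821622 and 38006810), 80 in the gaps between clusters and 11 in the flanks.

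The assay was enhanced reduced representation bisulfite sequencing, which reads the methylation of single CpGs in CpG-rich fragments. The cells were LSK cells, sorted from bone marrow as Lin- Sca1+ cKit+, a fraction with blood stem cells and multipotent progenitors. All libraries are of the C57BL/6 strain: T1 and T2 carry a targeted allele, and W1, W2 and W3 are wild type. The titles of T1 and T2 read KO but their genotype label is heterozygous (+/-), so the number of altered alleles is not stated here. The design text names 12 months of age for the transcriptome only. Separate animals are not named in the labels, so every p-value may reflect technical spread alone. The methylation tables hold no expression values, and the sort was not checked against marker genes.

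Clustered protocadherins are adhesion proteins of the cadherin superfamily, known best from neurons, where they bind identical proteins on other cells. In the alpha and gamma clusters each variable exon has its own promoter and is spliced to constant exons shared by its cluster, while beta genes have none. In neurons the choice among variable promoters differs from cell to cell, with methylation on promoters that are not used. The C-type genes, the last variable exons of alpha and gamma, are used more uniformly. RefSeq (GRCm38.p6) lists 14 alpha genes from Pcdha1 to Pcdha12, Pcdhac1 and Pcdhac2, then 22 beta genes from Pcdhb1 to Pcdhb22, then 22 gamma genes, 1 of them a pseudogene, from Pcdhga1 to Pcdhgc3, Pcdhgc4 and Pcdhgc5. Gene positions on mm9 were not used, so CpGs are placed by cluster and not assigned to genes.

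The median CpG of the window had 70 to 87.5 reads by library, against 88 to 113 elsewhere. Depth varied with the level: CpGs under 20% had a median of 78 to 115 reads and CpGs over 80% of 51 to 64. Only positions with 10 or more reads are in the tables. Without molecular identifiers, reads may outnumber the molecules sampled. A C-to-T change in the genome would be read as lost methylation, and this was not tested. T1 stands apart on all autosomes through higher levels at partly methylated CpGs, so comparisons of the groups are also given without it.

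CpGs of the protocadherin window were methylated at intermediate levels far more often than CpGs elsewhere. Between 20 and 80% lay 44.95% of its CpGs in T1, 43.1% in T2, 42.7% in W1, 45.7% in W2 and 42.4% in W3. Elsewhere on the autosomes the share was 6.64%, 6.95%, 7.08%, 7.11% and 7.01% in the same order. The window was higher in 5 of 5 libraries, by 36.8 points ± 1.55 (SD, n = 5; exact two-sided sign-flip test over libraries, in which 2 of the 32 sign patterns were as extreme, the fewest possible, so that it cannot pass 0.05). CpGs under 20% were fewer, 28.3% ± 1.62 against 61.2% ± 0.286. CpGs over 80% made up 27.98% ± 1.34 and 31.9% ± 0.472. The mean level was 48.6% ± 1.58 in the window and 34.4% ± 0.394 elsewhere, 14.2 points ± 1.23 higher in the window, again in 5 of 5 libraries.

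**Figure D1:**
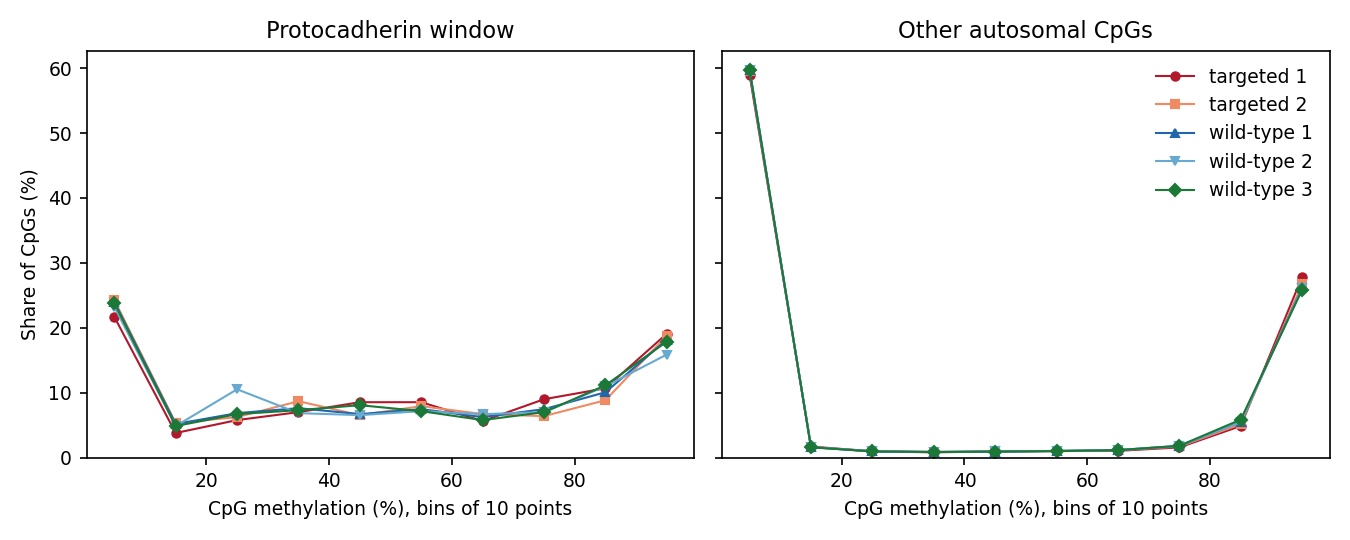
Share of CpGs (%) by methylation level in bins of 10 points, for the protocadherin window (654 CpGs) and the other autosomal CpGs (1029402 CpGs), with 1 line per library. The window has a plateau between 20 and 80% in all 5 libraries, which the other CpGs lack.

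Intermediate levels recurred in part at the same CpGs. In all 5 libraries 193 of 654 CpGs, or 29.5%, lay between 20 and 80%, against 4.24% of the other autosomal CpGs. Another 176 lay between these bounds in 1 to 4 libraries, while 154 were under 20% and 131 over 80% in all 5. Elsewhere 43694 CpGs lay between the bounds in all 5 libraries and 64616 in 1 to 4. At CpGs with a mean of 20 to 80% the 5 libraries spanned a median of 19.6 points in the window and 17.4 elsewhere. Among 1801 other autosomal windows of the same length with at least 100 CpGs, 2 to 4 by library had a higher share of partly methylated CpGs. The median share of the 1801 was 5.50 to 6.03%.

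Methylation is usually low where CpGs are dense, so CpGs were also compared at equal density, as covered CpGs per tile of 1000 bp. Partly methylated CpGs were 53.8% ± 2.62 of the window's CpGs in tiles with 3 to 9 CpGs, against 13.1% ± 0.552 elsewhere (SD, n = 5 here and in the next sentences). In tiles with 10 to 19 CpGs the shares were 45.3% ± 0.543 and 7.55% ± 0.0923. In tiles with 20 or more they were 17.8% ± 1.05 and 1.65% ± 0.125, and in tiles with 1 to 2 CpGs 30.5% ± 2.66 and 14.5% ± 0.989. The class of 20 or more is 4 tiles of the window. Its CpGs with a mean between 20 and 80% all lay in the tile from 37907001. In the others the highest CpG mean was 3.92% (from 37303001), 1.54% (from 37803001) and 7.51% (from 37966001). The window's share was higher in 5 of 5 libraries in each of the 4 classes. Its 10 comparisons with the other CpGs were of 2 measures, this share and the mean level, over all CpGs and in 4 classes. Each reached the smallest p the exact sign-flip test allows, whichever its direction. All 10 p-values were equal, so Benjamini-Hochberg adjustment could not change them.

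The mean level went in both directions. In tiles with 1 to 2 CpGs the window was less methylated than elsewhere, at 78.9% ± 1.77 against 82.9% ± 0.850 (SD, n = 5). It was also less methylated in tiles with 3 to 9 CpGs, at 59.4% ± 1.73 against 73.95% ± 0.675. In tiles with 10 to 19 CpGs it was more methylated, at 41.4% ± 2.07 against 28.4% ± 0.433 (SD, n = 5). Tiles with 20 or more CpGs had 10.1% ± 0.863 against 2.66% ± 0.128, but this class is 4 tiles, of which 1, from 37907001 in gamma, was partly methylated. Without that tile the class had 0.602% ± 0.168 (SD, n = 5). The tile was left out for its high level and no tile was left out elsewhere. This value therefore cannot be set against the 2.66% elsewhere.

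**Figure D2:**
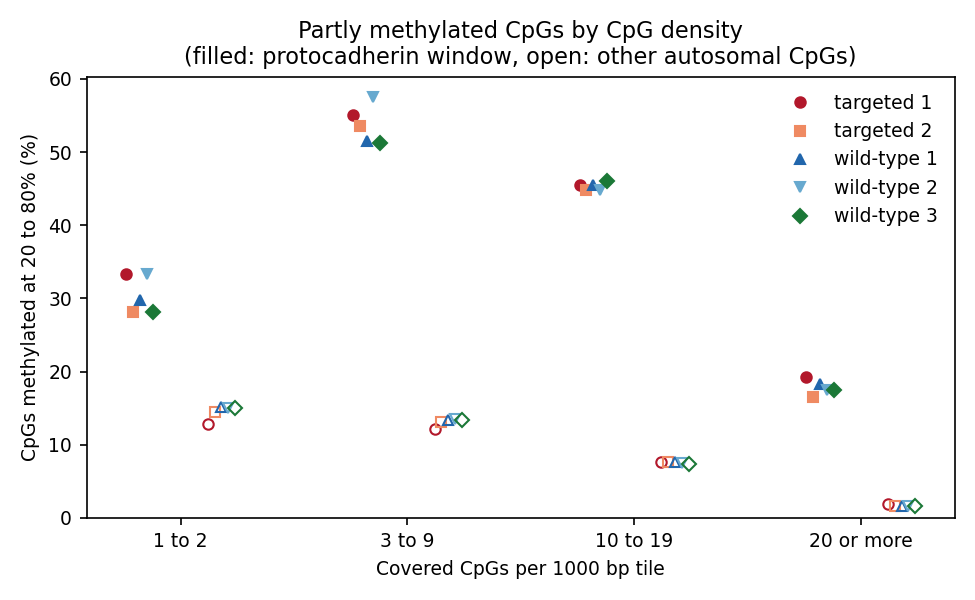
Share of CpGs methylated at 20 to 80% (%) by the number of covered CpGs per 1000 bp tile. Filled symbols are the protocadherin window, open symbols the other autosomal CpGs, with 1 symbol shape per library. In every density class all 5 filled symbols lie above all 5 open ones. In the class of 20 or more, the window's CpGs with a mean of 20 to 80% lie in 1 tile.

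The alpha cluster divided at its longest uncovered stretch, 53110 bp, into a more and a less methylated part. The 54 CpGs from 37080209 to 37180602 had a mean of 70.4% in T1 and 64.1% in T2, against 68.9%, 68.3% and 72.4% in W1, W2 and W3. The 85 CpGs from 37233712 to 37354547 had 27.3% in T1 and 24.6% in T2, against 24.2%, 23.7% and 24.5% in W1, W2 and W3. All 5 libraries were lower in the second part. This division, like that of gamma, was chosen after the levels were seen and was not tested.

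A CpG-dense tile almost free of methylation lay in the second part. From 37303001 to 37304000, 25 CpGs, the most in a tile of alpha, were methylated at 1.004% in T1 and 0.630% in T2, against 0.395%, 0.503% and 0.734% in W1, W2 and W3 (1892 to 2700 counts per library, summed over CpGs). This was also the lowest alpha tile with 5 or more CpGs, and its libraries all lay near 0. The next tile, from 37304001 with 19 CpGs, had 21.8% in T1 and 23.8% in T2, against 20.3%, 18.5% and 18.9% in W1, W2 and W3, with both targeted libraries above all wild-type ones. In the mean of 5 libraries its CpGs from 37304071 to 37304418 lay at 1.67 to 14.1%, those from 37304434 to 37304549 at 18.7 to 36.5% in no steady order, and the last, 37304637, at 78.96%.

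A second low tile held 15 CpGs from 37249576 to 37249911, at 4.92% ± 1.70 (SD, n = 5). The tile beside it, from 37250001 with 7 CpGs, was the alpha tile nearest to 50% and had the largest difference between groups in alpha. It was methylated at 61.4% in T1 and 48.4% in T2, against 37.6%, 46.4% and 43.4% in W1, W2 and W3 (289 to 489 counts). T1 and T2 lay above all wild-type libraries, by 12.5 points in the means (edgeR quasi-likelihood test, adjusted p = 0.789). The highest alpha tile with 5 or more CpGs, from 37140001 with 5, was at 89.01% ± 1.44 (SD, n = 5).

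**Figure D3:**
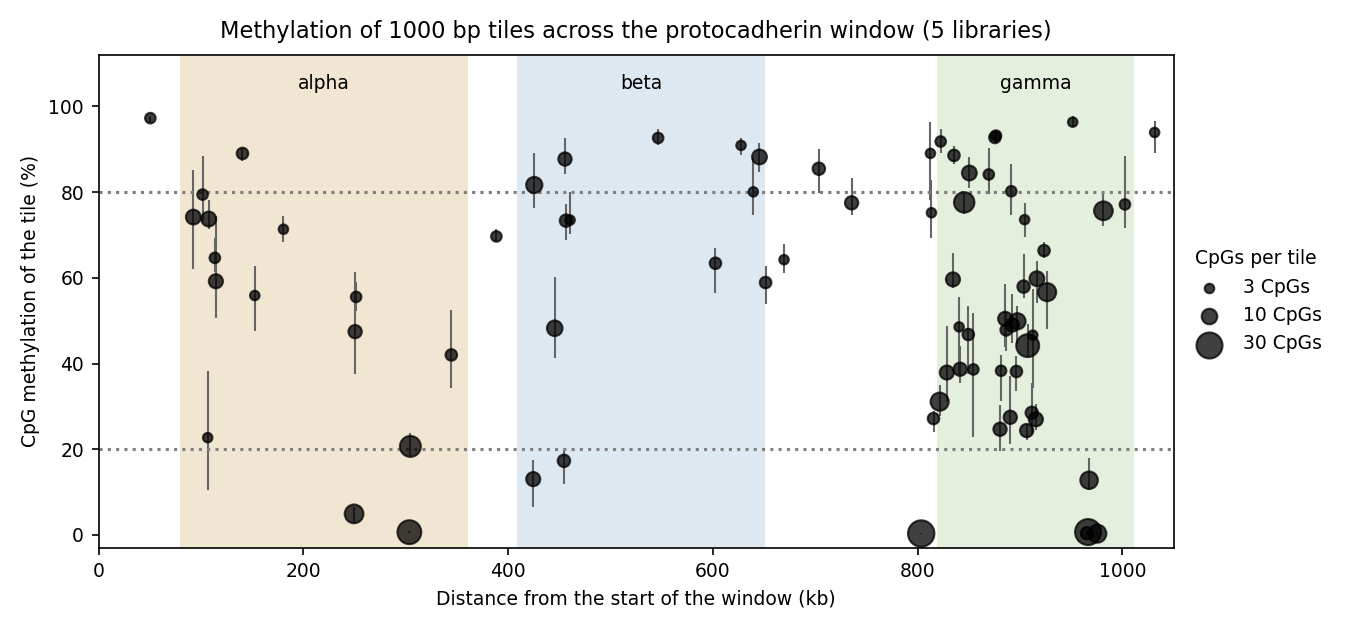
CpG methylation (%) of 1000 bp tiles with 3 or more CpGs against distance from the start of the window (kb). Points are means of 5 libraries with an area that grows with the number of CpGs, bars run from the lowest to the highest library, shading marks the clusters, and dotted lines mark 20 and 80%. Dense tiles near 0% lie in the second part of alpha, before gamma and near the end of gamma, and most gamma tiles lie between the dotted lines.

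Beta was the most methylated cluster, with a mean of 67.7% ± 1.80 over its 87 CpGs, against 41.9% ± 1.65 in alpha and 46.4% ± 2.04 in gamma (SD, n = 5). Each library had this order. Of its 8 tiles with 5 or more CpGs, 3 were partly methylated, 2 under 20% and 2 over 80% in all 5 libraries. The beta tile nearest to 50%, from 37445001 with 10 CpGs, had 60.2% in T1 and 41.4% in T2, against 47.9%, 41.2% and 50.4% in W1, W2 and W3. T1 was highest there, and T2 lay within the wild-type range.

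Low and high beta tiles stood side by side. The lowest, from 37424001 with 8 CpGs, was at 13.03% ± 4.73 (SD, n = 5). Its neighbour from 37425001, with 11 CpGs the largest of beta, was methylated at 89.2% in T1 and 84.5% in T2, against 79.02%, 79.2% and 76.3% in W1, W2 and W3 (854 to 1290 counts), without overlap of the groups. The difference of 8.69 points was the largest of beta and had the lowest unadjusted p of the window's tiles (edgeR quasi-likelihood test, adjusted p = 0.789). The highest beta tile with 5 or more CpGs, from 37645001 with 9, was at 88.2% ± 2.44 (SD, n = 5).

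The gamma cluster held most of the partly methylated CpGs. Of its 337 CpGs, 139 or 41.2% lay between 20 and 80% in all 5 libraries, against 16.5% of those in alpha and 24.1% in beta. By library the share was 54.01 to 57.3% in gamma, 31.7 to 38.8% in alpha and 34.5 to 42.5% in beta, with gamma highest in every library. Covered stretches, divided where CpGs were over 500 bp apart, followed each other at a median of 4068.5 bp in gamma, 9414 bp in alpha and 6324 bp in beta. In gamma 28 of 40 stretches had a mean between 20 and 80%, against 10 of 21 in alpha, 7 of 17 in beta and 8 of 21 outside the clusters. Such a mean can join low and high CpGs, as in the gamma stretch from 37906626 to 37907963, at 0.294% to 82.1%.

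Partly methylated tiles filled the first part of gamma. Its longest uncovered stretch, 25039 bp, leaves 247 CpGs from 37821622 to 37926614 and 90 from 37951653 to 38006810. In the first part 72.9% of CpGs had a mean between 20 and 80%, and 20 of its 24 tiles with 5 or more CpGs were partly methylated in all 5 libraries. These 24 tiles ran from 24.4% over a median of 48.4% to 92.7%. In the second part 11.1% of CpGs had such a mean, and 0 of 5 tiles did in all 5 libraries. Over the whole window 29 of 51 tiles, or 56.9%, were partly methylated in all 5 libraries, against 7.96% of other autosomal tiles with 5 or more CpGs.

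The tile from 37907001, with 23 CpGs, was methylated at 49.2% in T1 and 44.1% in T2, against 41.9%, 41.8% and 43.8% in W1, W2 and W3 (1271 to 1844 counts). The groups did not overlap there (edgeR quasi-likelihood test, adjusted p = 0.876). The gamma tile nearest to 50%, from 37897001 with 11 CpGs, had 50.8% in T1 and 52.6% in T2, against 53.4%, 44.5% and 47.96% in W1, W2 and W3, with overlapping groups. Its CpGs lay between 37.6% and 63.2% in the mean of 5 libraries, so each of them was partly methylated. The highest gamma tile with 5 or more CpGs, from 37875001 with 5, was at 92.7% ± 0.502 (SD, n = 5). Among gamma tiles with 5 or more CpGs the largest difference between groups was at 37926001 to 37927000. Its 14 CpGs had 61.6% in T1 and 61.05% in T2, against 59.2%, 53.3% and 48.1% in W1, W2 and W3. Both targeted libraries were above all wild-type ones there (edgeR quasi-likelihood test, adjusted p = 0.803). The gamma tile from 37912001, with 3 CpGs, differed more, by 11.8 points, with group means of 53.7% in targeted and 41.9% in wild type.

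**Figure D4:**
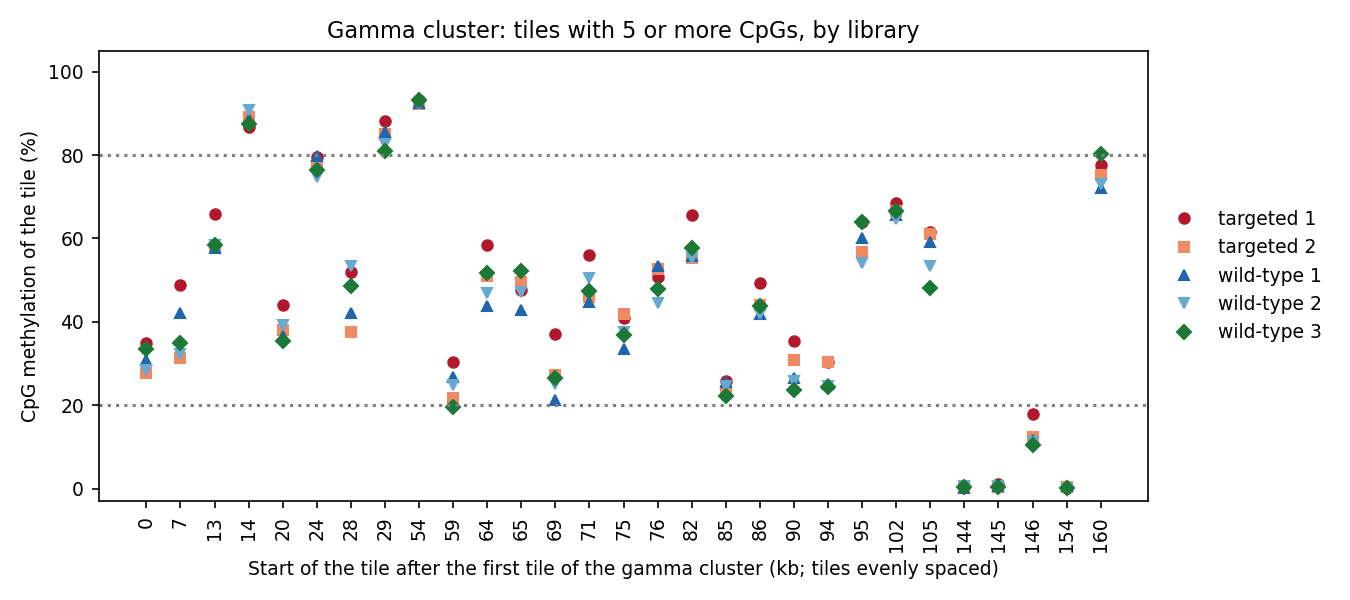
CpG methylation (%) of the 29 gamma tiles with 5 or more CpGs in order along the chromosome, evenly spaced and labelled by their start after the first of them (kb), with 1 symbol per library and dotted lines at 20 and 80%. Most tiles lie between the lines in every library, and 4 neighbouring points toward the right end lie under 20%.

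Near the end of gamma stood a group of low tiles. From 37965933 to 37975296, 63 CpGs in 4 tiles had a mean of 4.55% in T1 and 3.25% in T2, against 3.16%, 3.002% and 2.54% in W1, W2 and W3. The tile from 37966001, with 30 CpGs the largest of gamma, was methylated at 1.08% in T1 and 0.538% in T2, against 0.685%, 0.731% and 0.386% in W1, W2 and W3 (2035 to 3108 counts). The lowest gamma tile, from 37975001 with 14 CpGs, was at 0.313% ± 0.180 (SD, n = 5). Whether these tiles, or the low tiles of alpha, cover C-type genes was not tested.

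In the gap between beta and gamma RefSeq lists Slc25a2, a mitochondrial ornithine carrier, Taf7, a subunit of the general transcription factor TFIID, and Gm8242. The densest tile of the window lay in this gap, from 37803001 with 31 CpGs. It was methylated at 0.344% in T1 and 0.181% in T2, against 0.491%, 0.266% and 0.415% in W1, W2 and W3 (6097 to 7506 counts), near 0 in each library. The tile with the next most CpGs outside the clusters, from 37735001 with 7, was at 77.5% ± 3.72 (SD, n = 5). Of the gap's 73 CpGs 16.4% had a mean between 20 and 80%, against 56.4% in gamma.

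Tile levels were alike between libraries. Over the 34 tiles with 5 or more CpGs and a mean between 20 and 80%, Pearson's r between pairs of libraries was 0.922 to 0.967, lowest for T1 and W2. This describes tiles, which share libraries and depth and are not independent. Their levels had an SD of 17.3 points from tile to tile, while 1 tile had a median SD of 3.67 points between libraries. At partly methylated CpGs the median SD between wild-type libraries was 6.20 points in the window and 5.64 points elsewhere.

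Partial methylation was seen on both strands. Of 98 to 108 CpGs per library listed on both strands, 39 to 50 were partly methylated, and their strands differed by a median of 6.08 to 10.3 points by library. Neighbouring CpGs 2 to 50 bp apart differed by a median of 6.03 points in the window and 0.321 points elsewhere. Among pairs with a partly methylated CpG the medians were 13.6 points (250 pairs) and 15.6 points.

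The comparison of the groups asks whether the targeted allele goes with other methylation in these cells. The window's mean level was 51.3% in T1 and 47.8% in T2, against 48.2%, 47.3% and 48.5% in W1, W2 and W3. T1 was highest, and T2 lay within the wild-type range. The means, 49.6% ± 2.50 (SD, n = 2) against 48.004% ± 0.655 (SD, n = 3), differed by 1.55 points (exact two-sided permutation test, p = 0.4; the smallest p possible with 2 and 3 libraries is 0.1). Without T1 the difference was -0.219 points, and without T2 3.31. The share of partly methylated CpGs, 44.04% ± 1.30 (SD, n = 2) against 43.6% ± 1.86 (SD, n = 3), differed by 0.459 points (exact permutation test, p = 0.8), and by -0.459 points without T1.

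By cluster, T1 and T2 were both above the wild-type range in gamma and not in alpha or beta. The other autosomal CpGs had the same order as gamma, with 35.07% in T1 and 34.37% in T2 above 34.24%, 34.14% and 34.13% in W1, W2 and W3 (exact permutation test, p = 0.1), so it is not particular to gamma. Gamma had 49.9% in T1 and 46.2% in T2, against 45.5%, 44.8% and 45.6% in W1, W2 and W3, a difference of 2.80 points (exact permutation test, p = 0.1). Without T1 it was 0.953 points, and without T2 4.64. At a coverage minimum of 20 it was 2.67 points (exact permutation test, p = 0.3). With pooled reads it was 4.52 points (exact permutation test, p = 0.4). Alpha had 44.1% in T1 and 39.96% in T2, against 41.6%, 41.01% and 43.1% in W1, W2 and W3, a difference of 0.121 points (exact permutation test, p = 1.0). It turned negative without T1 (-1.93), W1 (-0.0485) or W2 (-0.320) and was 2.17 without T2. Beta had 70.4% in T1 and 65.8% in T2, against 68.01%, 66.4% and 67.7% in W1, W2 and W3, a difference of 0.708 points (exact permutation test, p = 0.9), which was -1.62 without T1, 3.03 without T2 and 0.220 without W2. In alpha and beta T1 was above and T2 below all wild-type libraries. Whether the clusters differ in this was not tested.

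In percentage points T1 was raised most at partly methylated CpGs, in classes cut by the mean of all 5 libraries, T1 among them. At CpGs under 20% it was 1.34 points above the wild-type mean, and at CpGs over 80% 1.39 points. The 98 CpGs with a mean of 20 to 40% had 37.3% in T1, 28.7% in T2 and 29.03% ± 1.46 in wild type (SD, n = 3). The 100 CpGs of 40 to 60% had 52.2% in T1, 48.4% in T2 and 48.1% ± 0.999 in wild type (SD, n = 3), and the 92 CpGs of 60 to 80% 74.8% in T1, 68.8% in T2 and 69.8% ± 1.24 in wild type (SD, n = 3). T1 was thus 8.23, 4.07 and 4.97 points above the wild-type mean in these classes. Elsewhere on the autosomes T1 was 7.49, 6.74 and 5.68 points above it, so the shift of T1 was not limited to the window.

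None of the tiles or CpGs of the window was called different. edgeR's quasi-likelihood test, with a call at a Benjamini-Hochberg p below 0.05 and 10 points or more, called 0 of 78 tiles with 3 or more CpGs. Over all 90368 autosomal tiles it called 0.0166%, 0.00221% higher and 0.0144% lower. At an unadjusted p below 0.05 the window had 3 higher and 1 lower tile, where 6.32% of all tiles passed, 5.35% higher and 0.976% lower. limma called 0 tiles here and 0 over all autosomes, and had 2 higher and 0 lower at an unadjusted p below 0.05, where 5.26% and 1.21% of all tiles were. Without T2 edgeR had 11 higher and 0 lower tiles, where 9.21% and 1.06% of all tiles were. Without T1 it had 1 higher and 3 lower, where 3.14% and 1.29% were. The 4 tiles of edgeR were those from 37250001 and 37425001, the tile from 37911001, at 33.2% ± 3.14 (SD, n = 2) against 25.4% ± 1.55 (SD, n = 3), and the lower tile from 37092001, at 67.04% ± 6.89 (SD, n = 2) against 78.9% ± 6.26 (SD, n = 3). The last 2 are named after their values were seen.

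Over the 78 tiles the median difference was 1.22 points, with 56 higher and 22 lower in the targeted group. Over all autosomal tiles the median was 0.286 points, and 65.8% were higher, against 71.8% in the window. T1 lay above the wild-type mean in 58 tiles, or 74.4%, against 66.9% of other tiles, and T2 in 38, or 48.7%, against 55.996%. Both were above all wild-type libraries in 16 tiles, or 20.5%, where the share over all autosomal tiles was 17.1%. They were below all of them in 3, or 3.85%, where it was 5.22%. These shares are near the background. Without T1, 38 tiles were higher and 40 lower, with a median of -0.125 points, where 56.3% of all tiles were higher, with a median of 0.0750 points.

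**Figure D5:**
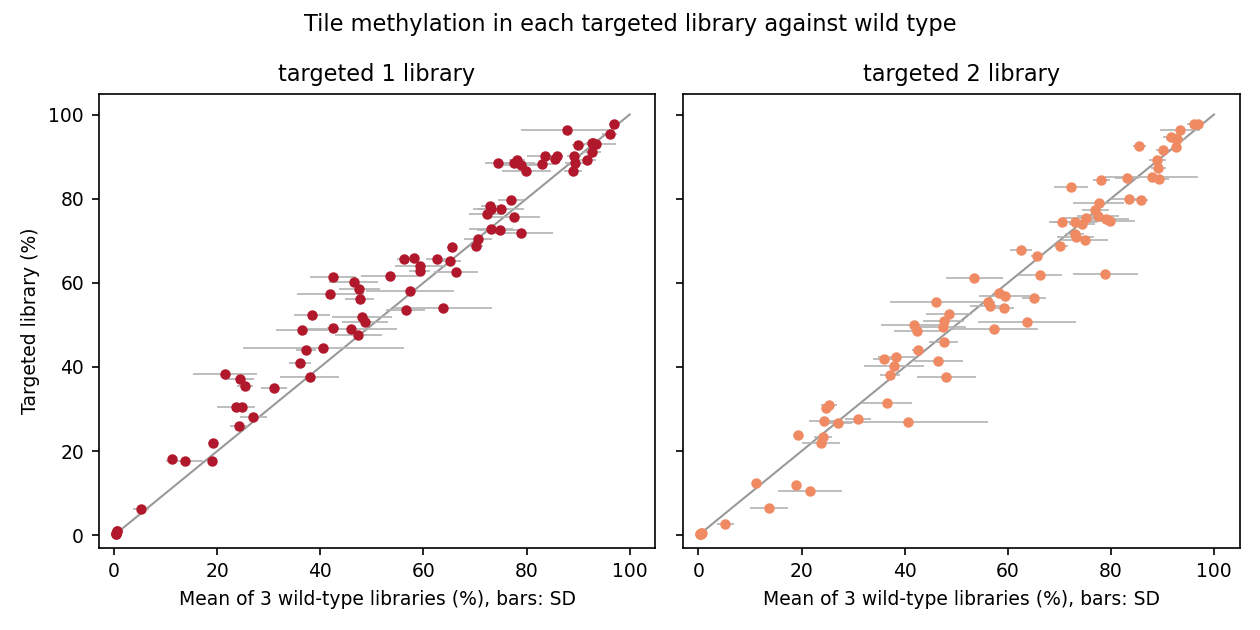
Methylation (%) of the window's 78 tiles with 3 or more CpGs in each targeted library against the mean of the 3 wild-type libraries, with bars for the wild-type SD and a line of equality. T1 lies mostly above the line, by a median of 3.13 points, and T2 on either side of it, with a median of -0.125 points.

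For single CpGs the same test, with a call at 25 points or more, called 0 of 610 CpGs of the window and 0.00871% of 757426 over all autosomes, 0.00251% higher and 0.00621% lower. At an unadjusted p below 0.05 it had 15 higher and 9 lower CpGs, where 2.97% of all passed, 2.29% higher and 0.677% lower. limma called 0 CpGs of the window and 0.00475% of all, and had 17 higher and 5 lower at that level, where 4.08% and 1.16% of all were. Without T1 edgeR had 5 higher and 19 lower CpGs, or 0.825% and 3.14%, where 2.04% and 0.855% of all were, so lower CpGs were the more frequent in the window and higher ones over all autosomes. Without T2 it had 40 higher and 4 lower CpGs, or 6.63% and 0.663%, where 4.76% and 0.788% of all were. Whether the window differs from the autosomes in this was not tested. The groups did not overlap at 87 of 654 CpGs with the targeted libraries above, or 13.3%, where 7.77% of all autosomal CpGs did so, and at 32 with them below, or 4.89%, where 3.67% did. Non-overlap at matched methylation levels was not tested.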

How the data were processed

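DNA was cut with MspI, and fragments of 150 to 400 bp were converted with bisulfite and read from 1 end for 50 bp, per the labels' protocols. The submitters' processing notes name Bismark and mm9 (NCBIM37), without a version. The authors' deposited tables give, for each strand position, a coverage count of 10 or more, not normalized, and the percent read as C and as T. Methylated reads were recovered as percent times coverage, which came within 0.01 of a whole number for 99.97% of the entries in each library. Total coverage was 122015958 to 151634492 counts per library.

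Entries in the top 0.1% of coverage were left out (none in the window), strands were merged, and CpGs in all 5 libraries were kept. Means weigh CpGs equally. A tile's level is its methylated over all counts, so 1 read can enter through several CpGs. Groups were compared by exact permutation, and the window with the rest by exact sign flips over libraries. Tiles of 1000 bp with 3 or more CpGs, and single CpGs, were tested over all autosomes with edgeR 4.0.16 (quasi-likelihood, library effects, common dispersion) in R 4.3.3. limma 3.58.1 (1 read added) was the alternative. The tile test was first run on simulated data with the same spread in every library, which does not show its power in these data. Figures were drawn with matplotlib 3.10.9.

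Among tiles with 5 or more CpGs the text names, per cluster, the 2 with the most CpGs, the lowest, the highest, the one nearest 50% and the one with the largest difference between groups, and, outside the clusters, the 2 with the most CpGs. The window, lists and tests were chosen with earlier results of these data known. The targeted gene is not reported here.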

Additional observations from a re-analysis of the deposited data

How the results depend on the processing

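The window exceeded the other autosomal CpGs under all alternatives run for the mean level (13.7 to 17.4 points, 13.7 to 14.5 with 1 library left out) and the share of partly methylated CpGs (36.1 to 44.7, 36.4 to 37.2 with 1 left out). In tiles with 20 or more CpGs the excess was 7.11 to 7.58 points with 1 library left out and 3.20 with pooled reads. At a coverage minimum of 20 it reversed to -1.74, where the tile from 37907001 keeps 18 of 23 CpGs and leaves the class. Between the groups, the gamma difference stayed positive (0.953 to 4.64 points with 1 library left out). Its exact permutation test gave p = 0.1 in the main setting, 0.3 at a coverage minimum of 20 and 0.4 with pooled reads. With 1 library left out, the ranges for the window (-0.219 to 3.31), alpha (-1.93 to 2.17), beta (-1.62 to 3.03) and the share of partly methylated CpGs (-0.459 to 1.53) include 0. That share also reversed with bounds of 10 and 90% (-1.17; the cause was not tested). Pooled reads gave 3.69 points in the window, 3.48 in alpha, 1.33 in beta and 4.52 in gamma. With the replicate block the differences were 1.82 points in the window, 0.732 in alpha, 0.880 in beta, 2.94 in gamma and -0.153 for the share, with 0 tiles and 0 CpGs called. These differences equal those without W3, which has no same-numbered targeted library. Same-numbered libraries had correlations of -0.0162 and 0.0167 between their deviations over 12021 tiles. The deviations of T1 and T2 mirror each other, so these values cannot show whether libraries were paired. The numbers were not taken as pairs. Every alternative of the tile and CpG tests called 0 in the window, including each library left out (0 to 0). In all, 92 of 103 alternatives kept the direction or count, 10 reversed it, and 1 gave a difference of 0 (the share of partly methylated CpGs without W1). Not all of them were free to differ. No entry of the window exceeded the coverage limit, so lifting it could not change a group difference. The replicate block repeated the group differences without W3. The tally is therefore no measure of robustness. With 2 and 3 libraries the exact test cannot go below 0.1, so its p-values say nothing about stability.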

Other observations

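At 3 CpGs of the window methylation was 1.47% or less in every library amid methylated neighbours, and at 1 of them no library had a methylated read. At 37735555, in the gap between beta and gamma, 0 of 201 reads of the 5 libraries were methylated, while 3 CpGs within 50 bp had 87.8% to 97.1%. With each read taken as a separate molecule, 0 of 201 allows up to 1.49%, and with fewer molecules the limit is higher. At 37388324, between alpha and beta, 2 of 449 reads were methylated, beside 3 CpGs of 92.2% to 94.1%. At 37907963, in gamma, 1 of 291 reads was methylated, beside 2 CpGs of 40.97% and 74.4%. These 3 are the CpGs of the window under 5% whose neighbours within 50 bp had a median over 50%, a rule made after the levels were seen. They are 2.31% of the 130 CpGs under 5% with neighbours in that range, against 0.146% of 587821 elsewhere. Whether the base at these positions differs from the reference was not tested.

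The 111 CpGs of the window that were not listed in all 5 libraries had a median coverage of 15 reads. Of these, 60, or 54.1%, were partly methylated, 18 were under 20% and 33 over 80%.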
